A study of Sus scrofa with 22 samples.

Results

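The question addressed here was whether the response of the porcine endometrium to pregnancy on Day 12 differed between the luminal epithelium (LE) and the stroma (S). For each gene, the log2 fold change (log2 FC) of pregnant against control gilts in LE was compared with that in S, and the difference of both effects (LE minus S) was tested. Libraries of LE and S from the same 6 gilts were used, 12 of the 22 libraries of the series, which were made from laser capture microdissected cells. Control gilts were 02, 04 and 13 and pregnant gilts 01, 05 and 14, and values are given below in this order. Of the 12401 genes listed in any of the 3 cell type tables, 10890 were listed for both LE and S and were tested, whereas 525 genes listed for LE but not for S and 642 listed for S but not for LE could not be compared. All animals were prepuberal crossbred gilts (German Landrace × Piétrain) whose cycle had been synchronized with gonadotropins. The pregnant gilts had been inseminated with semen and carried filamentous conceptuses, and the control gilts had received the supernatant of semen instead. Each cell type of a gilt is represented by 1 library made from cells cut out of stained cryosections, so that the captured area limits what a label stands for.

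The LE is the single cell layer that lines the uterine lumen and faces the conceptuses, while the glandular epithelium (GE) and the stroma with its fibroblasts, vessels and immune cells lie underneath. Around Day 12, elongating pig conceptuses secrete estradiol, interleukin 1 beta and, somewhat later, interferons. Estrogen and progesterone act on epithelium and stroma through receptors whose levels differ between these compartments, so that signals from the conceptus can reach each of them by different routes.

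The labels were checked against marker genes before any effect was compared. Summed over 14 epithelium markers, control LE libraries had 3770 to 4550 CPM and control S libraries 3780 to 4230 CPM, with overlap. The 13 tested fibroblast markers summed to 14300 to 20500 CPM in control LE and to 5840 to 10000 CPM in control S, and all 13 had the higher mean in LE, which is against the label of the S libraries. In pregnant gilts the fibroblast sum was 27400, 15900 and 14500 CPM in LE and 69700, 9640 and 13300 CPM in S, so that the S library of gilt 01 alone was rich in fibroblast markers. Its epithelium sum, 1640 CPM, was the lowest of all 12 libraries, and that of S from gilt 05, 5260 CPM, was close to the 5100 CPM in LE of the same gilt. The 7 listed leukocyte markers summed to 284 to 563 CPM in control LE and 203 to 306 CPM in control S, with CD3E, CD14 and CD68 not listed for both cell types, and the S library of gilt 01 had the highest sum (577 CPM). The 6 listed smooth muscle and pericyte markers reached 5890 CPM in LE of gilt 01 and at most 1600 CPM elsewhere. The blood endothelium (9 of 9) and smooth muscle (6 of 6) markers, too, had the higher mean in control LE. LE and S therefore stand in the following for the libraries so labelled. In these bulk samples, fewer cells of a type and less RNA per cell cannot be told apart.

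**Figure D1:**
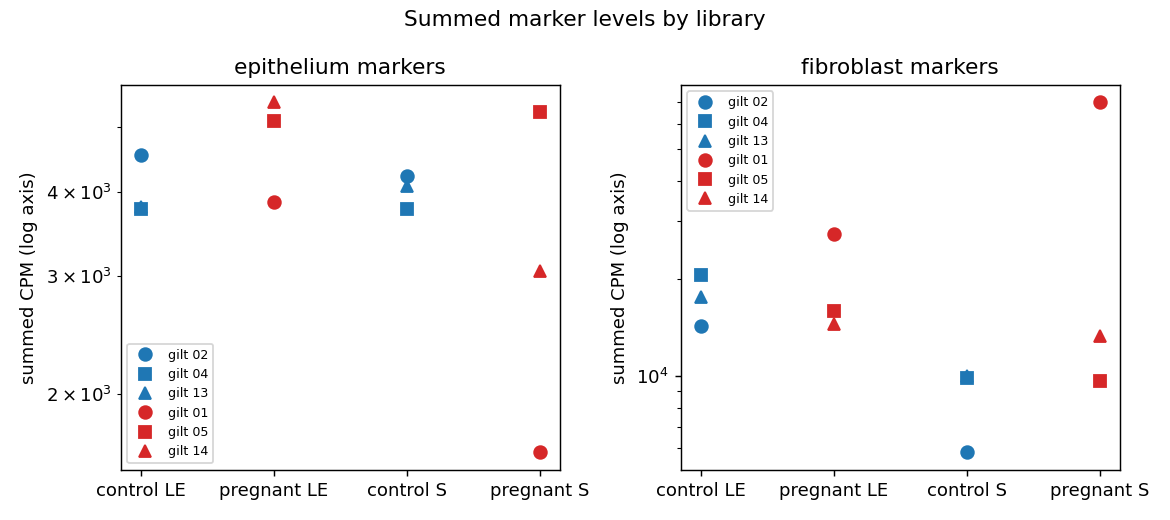
Summed CPM (log axis) of epithelium markers (left) and fibroblast markers (right) in each of the 12 libraries, with 1 symbol per gilt and controls in blue. In control gilts the fibroblast sum was 14300 to 20500 CPM in LE and 5840 to 10000 CPM in S, and only S of gilt 01 stood above all LE libraries with 69700 CPM.

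Total counts lay between 893912 (LE of gilt 01) and 4020796 per library, so that 3 counts, taken as the floor, corresponded to 0.702 to 3.61 CPM. Within gilts, LE and S libraries differed less in control than in pregnant animals. Over 10643 genes listed in all 3 tables, the log2 ratio of LE to S exceeded 1 in either direction for 4.87% to 11.2% of the genes in control gilts and for 14.3% to 29.5% in pregnant gilts, with the smallest pregnant value in gilt 05. In each pregnant gilt the S library correlated more closely with GE (log2 CPM, r = 0.920, 0.958 and 0.953) than with LE (0.780, 0.892 and 0.821), which in control gilts held for gilt 04 only. A share of glandular cells in the S libraries was not tested, and effects in S and their closeness to those in GE are to be read with these values.

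With the gilt as a block, the pregnancy effect in LE was above that in S for 31 genes (0.285% of those tested) and below it for 78 genes (0.716%), together 109 genes, at the unadjusted p of 0.0021 that the study used as its cut-off. If no gene differed, 22.9 genes would be expected at this cut-off. Without the block, 4 and 18 genes were called. After adjustment for all genes, 1 gene passed an FDR of 5% (0.00918%), TNIK, and 15 genes an FDR of 10% (0.138%), while 0 passed 1%. An unadjusted p value below 0.05 was reached by 847 genes above (7.78%) and 603 below (5.54%), and in edgeR's likelihood ratio test and the DESeq2 Wald test, 365 and 279 genes passed an FDR of 5%. The number of genes thus depended on the test, and the genes described below are those called by the quasi-likelihood test unless stated. When each gilt was left out in turn, 24 of the 109 calls, all with the lower effect in LE, were kept in all 6 fits and 4 in none.

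Both directions differed in what the cell types did. Of the 78 genes with the lower effect in LE, 54 had lower expression in pregnant LE and higher expression in pregnant S, and 23 were lower in both but more so in LE. Their median log2 FC was −1.70 in LE and 0.44 in S. Of the 31 genes with the higher effect in LE, 20 were higher in both cell types and more so in LE, 7 were higher in LE and lower in S, and 4 were lower in both and more so in S, with a median of 1.97 in LE and 0.60 in S. The LE and S libraries lay farther apart in pregnant than in control gilts for 29 of the 31 and 75 of the 78 genes, compared with 71.8% and 65.1% of all genes whose difference had the same sign. Within-gilt LE to S ratios of pregnant and control gilts did not overlap in any of the 109 genes. Among all genes whose difference had the same sign, this held for 23.5% in the upward and 16.5% in the downward direction. Of all genes tested, these were 11.4% and 8.44%. Since the 109 genes were called on these same ratios, the wider gaps and the lack of overlap follow in part from that choice. GE libraries of the series did not enter the comparison. For the genes below, the pregnancy effect in GE was nearer to that in S in 55 of 78 (70.5%), and for those above in 22 of 31 (71%). Among all genes whose difference had the same sign, the shares were 49.4% and 57.2%. Genes not listed for GE count in each of these totals. The called genes were chosen for a large difference, with the larger median effect in LE. A small effect in GE therefore lies nearer to S in part through that choice, which was not made for all genes. The median effect in GE was 0.06 in the 77 genes below and 0.61 in the 29 above that are listed for GE.

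**Figure D2:**
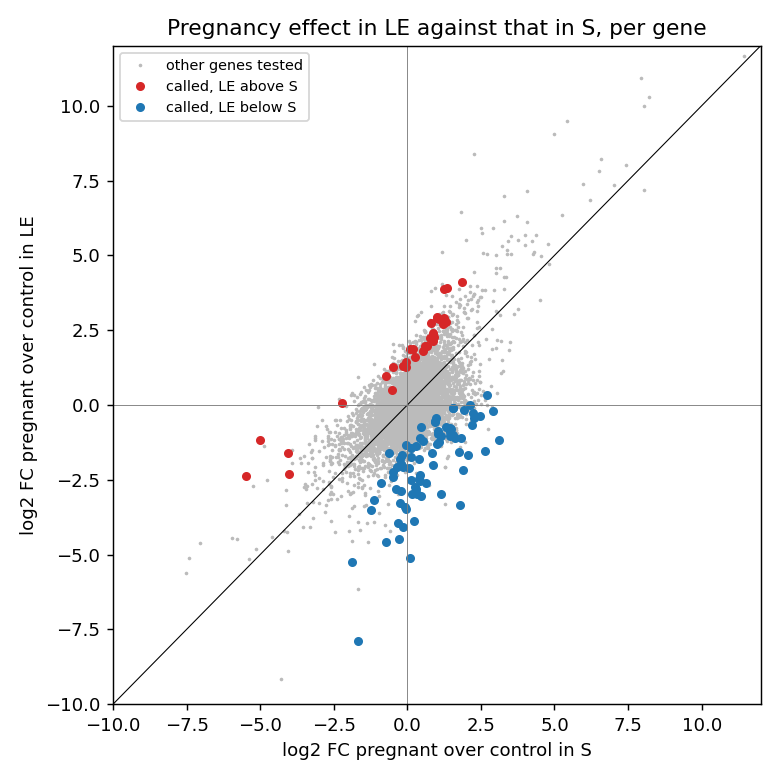
Log2 FC of pregnant over control gilts in LE (vertical axis) against that in S (horizontal axis) for each gene tested, with the diagonal marking equal effects. The 78 called genes below the diagonal (blue) had a median of −1.70 in LE and 0.44 in S, and the 31 above it (red) 1.97 and 0.60.

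Leading the genes with the lower effect in LE was TNIK (gene ID 100233204, chromosome 13, 109642848 to 110052345, Sscrofa11.1), a kinase that takes part in WNT signalling and in organizing the cytoskeleton. It was at 78.8, 82.3 and 81.9 CPM in control LE and 9.63, 18.5 and 17.4 CPM in pregnant LE. The values in S were 74.7, 62.3 and 92.7 CPM in control S and 65.3, 138 and 106 CPM in pregnant S. All pregnant LE libraries thus lay below all control LE libraries, while the groups overlapped in S. The LE to S ratio (log2) was −0.18 to 0.40 in control gilts and −2.85 to −2.55 in pregnant gilts, and the difference of the effects was −2.84 (SE 0.28, 95% CI −3.48 to −2.21, quasi-likelihood FDR 0.0461). TNIK was called in each of the 6 fits without 1 gilt.

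Several other genes showed the same form, lower levels in all pregnant LE libraries beside levels in S that overlapped between the groups. NDRG2, a gene of the N-myc downstream regulated family that is linked to differentiation, was at 116, 110.3 and 115 CPM in control LE and 20.5, 14.2 and 29.5 CPM in pregnant LE. In S it was at 119, 151 and 107 CPM in control gilts and 76.2, 54.2 and 139 CPM in pregnant gilts, with a difference of −1.90 (SE 0.27, 95% CI −2.53 to −1.28, quasi-likelihood FDR 0.0982). PCTP, which carries phosphatidylcholine between membranes, had 58.9, 51.3 and 38.8 CPM in control LE and 3.61, 8.96 and 21.2 CPM in pregnant LE. Its S values were 56.8, 103 and 52.6 CPM in control S and 52.9, 58.5 and 279.5 CPM in pregnant S, and gilt 14 was the highest there. The difference was −2.87 (SE 0.41, 95% CI −3.81 to −1.94, quasi-likelihood FDR 0.0982). UGT8 transfers galactose to ceramide in the synthesis of galactolipids. It was at 39.8, 34.2 and 51.5 CPM in control LE and 0, 1.24 and 9.51 CPM in pregnant LE and at 73.6, 61.4 and 55.9 CPM in control S and 27.2, 18.8 and 113 CPM in pregnant S. Again only the LE groups were separated (difference −3.24, SE 0.49, 95% CI −4.35 to −2.13, quasi-likelihood FDR 0.0982).

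NAALADL2, a relative of glutamate carboxypeptidase, showed 214, 227 and 229 CPM in control LE and 38.5, 70.1 and 79.3 CPM in pregnant LE against 311, 253 and 276 CPM in control S and 140.02, 254 and 308 CPM in pregnant S. Its ratios hardly varied within groups, −0.54 to −0.16 in control gilts and −1.95 to −1.84 in pregnant gilts (difference −1.57, SE 0.24, 95% CI −2.12 to −1.03, quasi-likelihood FDR 0.0982). EFNA5, a membrane-bound ligand of EPH receptors, was lower in all pregnant libraries of both cell types, although the nearest S libraries were close (171.5 CPM in gilt 14 and 172.1 CPM in gilt 13). It was at 249.9, 216 and 152 CPM in control LE and 24.1, 22.2 and 52.6 CPM in pregnant LE and at 276, 278 and 172 CPM in control S and 96.5, 125 and 172 CPM in pregnant S, with a difference of −1.83 (SE 0.28, 95% CI −2.48 to −1.19, quasi-likelihood FDR 0.0982). COLGALT2, an enzyme that adds galactose to collagen, and LOC100518644, annotated as similar to glycine N-acyltransferase, had differences of −2.90 (SE 0.46, 95% CI −3.95 to −1.85, quasi-likelihood FDR 0.113) and −4.15 (SE 0.64, 95% CI −5.60 to −2.69, quasi-likelihood FDR 0.0982). Of the windows of 50 bases in LOC100518644, 15.5% also occur in other genes, mainly LOC100517803, so that reads could have been divided. ARHGEF38, an exchange factor of small GTPases, had a difference of −3.42 (SE 0.51, 95% CI −4.57 to −2.26, quasi-likelihood FDR 0.0982), but 45.3% of its exon bases lie opposite exons of INTS12, and the use of strand in counting is not given in the sources used here. All of these genes were called in each of the 6 fits without 1 gilt.

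**Figure D3:**
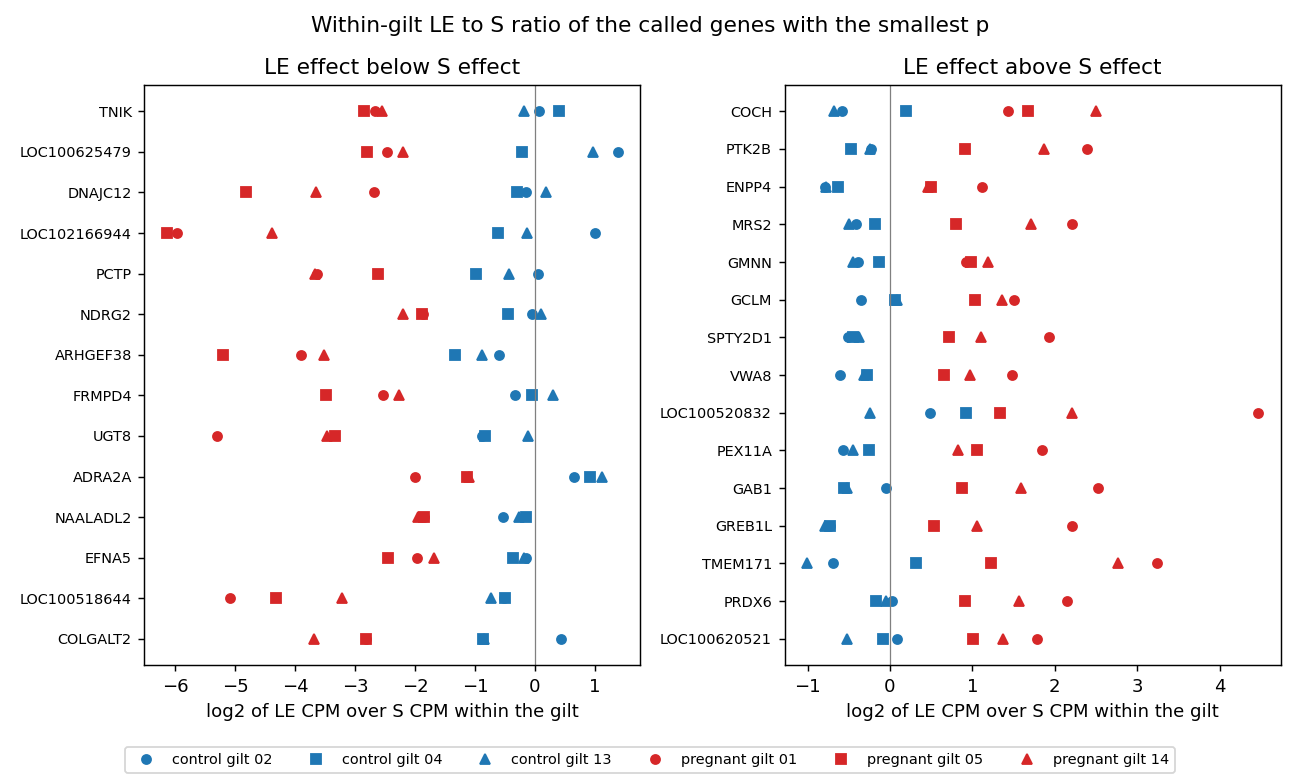
Log2 ratio of LE to S CPM within each gilt (control blue, pregnant red, 1 symbol per gilt) for the called genes with the smallest p, 14 with the lower and 15 with the higher effect in LE. For TNIK the ratio was −0.18 to 0.40 in control gilts and −2.85 to −2.55 in pregnant gilts. In none of the genes did the groups overlap, which follows in part from calling them on these ratios.

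In another form, all pregnant S libraries lay above all control S libraries. LOC100625479, annotated as cytochrome P450 1B1, an enzyme that hydroxylates estradiol (gene ID 100625479, chromosome 3, 102195743 to 102205687), was at 86.3, 183 and 132 CPM in control LE and 152, 36.4 and 72.9 CPM in pregnant LE. In S it was at 32.7, 211 and 66.9 CPM in control gilts and 842, 257 and 338 CPM in pregnant gilts. The groups overlapped in LE and were separated in S, and the difference was −3.20 (SE 0.43, 95% CI −4.17 to −2.23, quasi-likelihood FDR 0.0982). DNAJC12, a co-chaperone of HSP70, had 22.9, 17.4 and 6.78 CPM in control LE and 7.23, 3.40 and 1.59 CPM in pregnant LE and 25.3, 21.6 and 5.88 CPM in control S and 50.6, 115 and 28.1 CPM in pregnant S (difference −4.07, SE 0.55, 95% CI −5.32 to −2.81, quasi-likelihood FDR 0.0982). ADRA2A, an adrenergic receptor coupled to inhibitory G proteins, moved in opposite directions without overlap in either cell type. It had 31.5, 36.1 and 54.03 CPM in control LE and 16.9, 21.6 and 25.05 CPM in pregnant LE against 19.9, 18.9 and 24.6 CPM in control S and 69.2, 48.4 and 54.3 CPM in pregnant S, and the difference was −2.29 (SE 0.35, 95% CI −3.08 to −1.50, quasi-likelihood FDR 0.0982). FRMPD4, a scaffold protein of synapses, likewise was separated in both cell types, with a difference of −2.88 (SE 0.43, 95% CI −3.86 to −1.91, quasi-likelihood FDR 0.0982). These 4 genes were called in each fit without 1 gilt.

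A further group had its highest level in the single S library rich in fibroblast markers, that of gilt 01. ADAMTS5, a protease that degrades the proteoglycan aggrecan, was at 34.1, 19.8 and 19.2 CPM in control LE and 54.2, 26.3 and 15.2 CPM in pregnant LE. In S, 19.1, 31.6 and 15.1 CPM in control gilts and 291, 91.2 and 54.3 CPM in pregnant gilts were measured. Pregnant S exceeded control S in all 3 gilts, gilt 01 by far the most, and the difference was −2.17 (SE 0.42, 95% CI −3.12 to −1.21, quasi-likelihood FDR 0.143). Chosen after their values were seen, SVEP1, C1S, SERPING1, CCDC80 and CEMIP, which code for extracellular proteins, showed the same high value. SVEP1 reached 189.8 CPM in S of gilt 01 and 42.4 and 40.7 CPM in the other pregnant S libraries, against at most 14.6 CPM in control S. C1S had 559, 63.2 and 147 CPM and SERPING1 443, 62.9 and 78.1 CPM in pregnant S. The calls of ADAMTS5, SVEP1 and C1S were kept in 3, 6 and 4 of the 6 fits. In the fit without gilt 01, SVEP1, C1S, SERPING1, CCDC80 and CEMIP were still called, whereas ADAMTS5 was not. Summed fibroblast markers were 69700 CPM in S of gilt 01, and their part in these differences was not tested.

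The metallothioneins, small cysteine-rich proteins that bind zinc and copper, lie together on chromosome 6. Of the 7 metallothionein genes annotated there, all on the plus strand, 5 were tested, and all 5 were called with the lower effect in LE. These 5 span 38.9 kb, from position 18634735 to 18673673. LOC102166944 (annotated as similar to metallothionein-1E) and MT3 were named by the rules for this report, and MT1D, MT-2B and MT1A were added after their values were seen. MT4 and LOC100739663, annotated as metallothionein-1C, were not listed for both cell types. Since the 5 tested genes moved together, the 250 bases before the annotated start of each are shown. The windows were read from the Sscrofa11.1 genome of RefSeq, plus strand, at chr6:18634485-18634734, chr6:18644875-18645124, chr6:18650735-18650984, chr6:18660415-18660664 and chr6:18671766-18672015 in this order. Capitals mark matches, on either strand, to the core of the metal response element, searched as TGCACNC and TGCGCNC, where overlapping matches run together.
MT3: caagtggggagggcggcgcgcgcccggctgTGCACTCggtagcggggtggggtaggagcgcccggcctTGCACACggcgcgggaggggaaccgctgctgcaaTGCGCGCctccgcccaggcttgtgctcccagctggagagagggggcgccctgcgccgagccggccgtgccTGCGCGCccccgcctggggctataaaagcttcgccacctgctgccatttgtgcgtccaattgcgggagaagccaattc
MT-2B: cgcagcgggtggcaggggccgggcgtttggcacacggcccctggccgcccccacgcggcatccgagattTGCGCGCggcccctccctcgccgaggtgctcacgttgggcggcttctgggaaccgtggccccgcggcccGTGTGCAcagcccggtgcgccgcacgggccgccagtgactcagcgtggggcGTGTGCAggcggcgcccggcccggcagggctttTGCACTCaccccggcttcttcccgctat
MT1D: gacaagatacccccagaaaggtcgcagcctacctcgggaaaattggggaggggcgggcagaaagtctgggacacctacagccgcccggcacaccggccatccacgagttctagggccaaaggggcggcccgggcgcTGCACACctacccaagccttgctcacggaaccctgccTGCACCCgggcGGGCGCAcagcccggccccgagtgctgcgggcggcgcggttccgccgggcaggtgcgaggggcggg
LOC102166944: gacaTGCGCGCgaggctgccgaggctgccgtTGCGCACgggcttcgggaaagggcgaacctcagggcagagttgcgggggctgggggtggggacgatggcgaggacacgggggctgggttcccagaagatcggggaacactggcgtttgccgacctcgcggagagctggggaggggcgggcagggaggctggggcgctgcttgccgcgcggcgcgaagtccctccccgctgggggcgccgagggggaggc
MT1A: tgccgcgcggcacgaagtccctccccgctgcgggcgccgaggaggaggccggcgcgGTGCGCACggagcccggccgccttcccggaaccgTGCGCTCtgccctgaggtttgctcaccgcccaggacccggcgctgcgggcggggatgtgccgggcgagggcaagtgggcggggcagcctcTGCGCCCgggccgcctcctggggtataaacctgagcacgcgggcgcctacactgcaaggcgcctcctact

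MT3, MT-2B and MT1A held 4 matches each, MT1D 3 and LOC102166944 2. At least 1 match occurred in 23.8% of the 20656 windows of this length before annotated protein-coding genes, at least 3 in 1.47% and at least 4 in 0.416%. A match is a description of the letters and not a measured binding site, and MT1D and LOC102166944 have a second annotated start farther downstream that was not searched.

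All metallothionein genes followed one course in the libraries. MT-2B was at 111, 188 and 114 CPM in control LE and 2.41, 4.32 and 26.6 CPM in pregnant LE. Its values in S were 75.5, 234 and 135 CPM in control S and 102, 214 and 116 CPM in pregnant S. The LE groups did not overlap, with fewer counts in every pregnant gilt, while those of S did (difference −3.90, SE 0.82, 95% CI −5.75 to −2.04, quasi-likelihood FDR 0.190). MT1D was at 24.8, 107 and 48.4 CPM in control LE and 0, 7.41 and 19.3 CPM in pregnant LE and at 12.8, 246 and 68.8 CPM in control S and 68.5, 194 and 179.6 CPM in pregnant S (difference −3.78, SE 0.73, 95% CI −5.43 to −2.13, quasi-likelihood FDR 0.143). LOC102166944 had 0 counts in LE of gilts 01 and 05. It was at 36.4, 60.6 and 47.7 CPM in control LE and 0, 0 and 3.17 CPM in pregnant LE, and at 17.9, 93.6 and 52.6 CPM in control S and 43.6, 49.1 and 80.2 CPM in pregnant S (difference −5.67, SE 0.81, 95% CI −7.51 to −3.84, quasi-likelihood FDR 0.0982).

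For MT1A, 13.9, 22.5 and 25.7 CPM in control LE and 0, 0 and 6.34 CPM in pregnant LE and 11.7, 53.5 and 44.9 CPM in control S and 10.9, 41.04 and 85.1 CPM in pregnant S were found (difference −4.05, SE 0.86, 95% CI −5.99 to −2.10, quasi-likelihood FDR 0.191), but 41.5% of its windows of 50 bases also occur in LOC100739663, so that reads could have been divided between both. MT3 was the lowest in CPM, at 4.88, 11.95 and 10.1 CPM in control LE and 0, 0.618 and 2.85 CPM in pregnant LE and 2.73, 23.4 and 9.19 CPM in control S and 3.11, 11.8 and 38.9 CPM in pregnant S (difference −3.75, SE 0.67, 95% CI −5.28 to −2.23, quasi-likelihood FDR 0.120). In each of the 5 genes, S of gilt 04 was the highest control S library. LOC102166944 was called in 6 of the 6 fits without 1 gilt, MT1A, MT1D and MT3 in 4 each and MT-2B in 1.

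**Figure D4:**
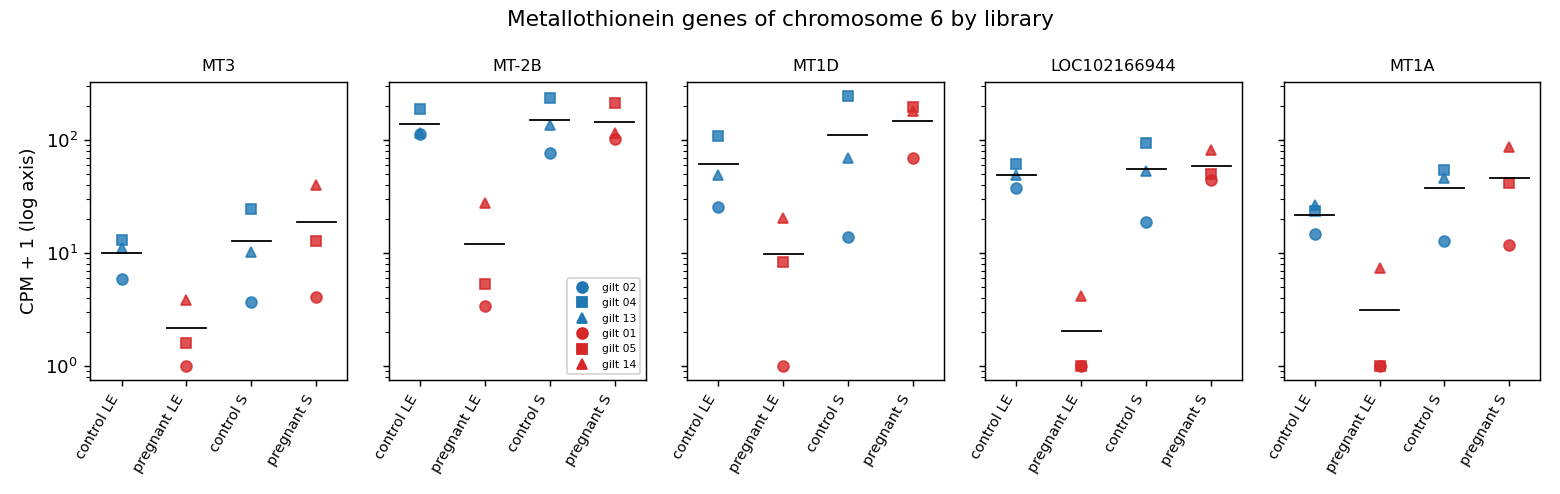
CPM + 1 (log axis) of the 5 tested metallothionein genes of chromosome 6 in each library, with 1 symbol per gilt, controls in blue and lines at the group means. Pregnant LE lay below control LE in every gene, MT-2B for example at 2.41 to 26.6 CPM against 111 to 188 CPM, whereas the S groups overlapped.

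Receptors and enzymes with the lower effect in LE included PTGER2, a receptor of prostaglandin E2. It was at 73.5, 80.1 and 111 CPM in control LE and 6.02, 8.34 and 17.1 CPM in pregnant LE. In S its level was 168, 128 and 125 CPM in control gilts and 252, 588 and 89.5 CPM in pregnant gilts. LE groups were separated, while S groups overlapped with gilt 14 as the lowest of all (difference −3.80, SE 0.86, 95% CI −5.77 to −1.84, quasi-likelihood FDR 0.208). ACP5, which codes for uteroferrin, an iron-binding protein of the uterine secretions, had 186, 165 and 158 CPM in control LE and 37.3, 5.56 and 12.998 CPM in pregnant LE. In S, where 524, 594 and 181 CPM in control gilts and 1366, 2874 and 262 CPM in pregnant gilts were found, gilts 01 and 05 exceeded and gilt 14 fell within the control range (difference −4.82, SE 1.08, 95% CI −7.28 to −2.36, quasi-likelihood FDR 0.208). RNF43, a ubiquitin ligase that removes WNT receptors, was at 8.25, 8.15 and 10.3 CPM in control LE and 0, 0.927 and 2.85 CPM in pregnant LE against 10.9, 20.7 and 8.09 CPM in control S and 3.89, 7.40 and 39.8 CPM in pregnant S (difference −3.07, SE 0.68, 95% CI −4.63 to −1.52, quasi-likelihood FDR 0.208). The calls of PTGER2 and RNF43 were kept in 1 of the 6 fits each and that of ACP5 in 2.

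Chosen after their values were seen, several transcription regulators belong to the same direction. GATA2 had 95.7, 87.5 and 72.7 CPM in control LE and 10.8, 15.8 and 31.1 CPM in pregnant LE against 91.9, 84.8 and 81.99 CPM in control S and 75.5, 76.7 and 81.1 CPM in pregnant S (difference −2.02, SE 0.36, 95% CI −2.83 to −1.20, quasi-likelihood FDR 0.120), with 26.3% of its exon bases opposite to LOC102160340. HOXA3 was at 9.004, 18.7 and 15.2 CPM in control LE and 0, 1.24 and 1.90 CPM in pregnant LE and at 18.3, 33.7 and 20.2 CPM in control S and 20.2, 15.8 and 33.01 CPM in pregnant S (difference −3.36, SE 0.55, 95% CI −4.62 to −2.10, quasi-likelihood FDR 0.120). JAZF1, a zinc finger protein, was at 228, 304 and 267 CPM in control LE and 73.5, 133 and 165 CPM in pregnant LE and at 261, 422 and 378 CPM in control S and 331, 408 and 693 CPM in pregnant S (difference −1.55, SE 0.27, 95% CI −2.16 to −0.95, quasi-likelihood FDR 0.120). In all of them the pregnant LE libraries lay below all control LE libraries. The calls of HOXA3 and JAZF1 were kept in each fit without 1 gilt and that of GATA2 in 4 of 6.

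For SLC35F3, LOC102157546, LOC110260804 and LOC102162768, also called with the lower effect in LE, all pregnant LE libraries had at most 3 counts, so that no difference is given. SLC35F3 was at 7.13, 22.01 and 3.98 CPM in control LE and 0, 0.927 and 0.634 CPM in pregnant LE and at 9.34, 47.7 and 5.15 CPM in control S and 14.8, 28.6 and 7.10 CPM in pregnant S. LOC102162768 was at 9.38, 11.14 and 10.8 CPM in control LE with 0 counts in pregnant LE, while S had 8.56, 7.91 and 6.62 CPM in control S and 3.89, 0 and 3.70 CPM in pregnant S.

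Among genes with the higher effect in LE, COCH, an extracellular matrix protein first known from the inner ear, had the smallest p. It was at 97.2, 29.6 and 71.8 CPM in control LE and 1.20, 3.71 and 29.5 CPM in pregnant LE. The S libraries had 146, 25.8 and 115 CPM in control S and 0, 0.673 and 4.63 CPM in pregnant S. The pregnant libraries lay below the controls in both cell types, S farther than LE (log2 FC −2.37 in LE and −5.47 in S, difference 3.02, SE 0.47, 95% CI 1.96 to 4.07, quasi-likelihood FDR 0.0982). LOC100520832, annotated as similar to lithostathine, a secreted lectin, was lower in all pregnant S libraries, while the LE groups overlapped because of gilt 01. It was at 87.8, 125 and 57.5 CPM in control LE and 118, 2.78 and 11.096 CPM in pregnant LE and at 62.3, 65.7 and 68.4 CPM in control S and 4.67, 0.673 and 1.85 CPM in pregnant S (difference 3.10, SE 0.62, 95% CI 1.68 to 4.51, quasi-likelihood FDR 0.161), but 40.3% of its windows of 50 bases occur in other genes, mainly REG3G. COCH was called in 5 and LOC100520832 in 3 of the 6 fits.

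Most of the others were higher in pregnant LE, and their calls rested more on single gilts. SLC5A1, the sodium-dependent glucose carrier SGLT1 (gene ID 397113, chromosome 14, 48566400 to 48704145), was at 33.02, 84.2 and 40.9 CPM in control LE and 971, 1196 and 578 CPM in pregnant LE. Its S values were 70.9, 137 and 59.2 CPM in control S and 87.9, 742 and 127 CPM in pregnant S. LE groups were clearly apart, and S of gilt 05 alone was close to LE (log2 FC 4.11 in LE and 1.84 in S, difference 2.86, SE 0.63, 95% CI 1.43 to 4.29, quasi-likelihood FDR 0.208). GAB1, an adaptor of growth factor receptors, had 66.8, 76.1 and 52.9 CPM in control LE and 531, 566 and 371 CPM in pregnant LE. Levels in S were 69.3, 112 and 76.1 CPM in control S and 91.8, 308 and 122 CPM in pregnant S, again with the highest value in gilt 05 (difference 2.03, SE 0.42, 95% CI 1.08 to 2.98, quasi-likelihood FDR 0.168). PTK2B, a calcium-responsive tyrosine kinase, was at 106, 92.4 and 76.2 CPM in control LE and 332, 436 and 233 CPM in pregnant LE and at 124, 128 and 90.1 CPM in control S and 63.01, 232 and 63.2 CPM in pregnant S (difference 2.02, SE 0.38, 95% CI 1.16 to 2.88, quasi-likelihood FDR 0.140). SLC5A1, GAB1 and PTK2B were each called in 2 of the 6 fits without 1 gilt.

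Enzymes of antioxidant defence were PRDX6, a peroxiredoxin, and GCLM, the modifier subunit of the enzyme that starts glutathione synthesis. PRDX6 was at 53.3, 60.9 and 59.9 CPM in control LE and 434, 561 and 188 CPM in pregnant LE, and at 52.6, 68.4 and 61.8 CPM in control S and 97.2, 298 and 63.2 CPM in pregnant S (difference 1.60, SE 0.34, 95% CI 0.83 to 2.37, quasi-likelihood FDR 0.191), but 33.4% of its exon bases lie opposite to LOC100624136. GCLM was at 58.5, 77.7 and 83.3 CPM in control LE and 136, 240.3 and 146 CPM in pregnant LE and at 75.1, 74.2 and 78.3 CPM in control S and 47.5, 117 and 56.5 CPM in pregnant S (difference 1.36, SE 0.27, 95% CI 0.76 to 1.97, quasi-likelihood FDR 0.143). MARVELD2, also named tricellulin, a protein of tight junctions where 3 cells meet, was at 75.4, 85.6 and 102 CPM in control LE and 296, 479.7 and 461 CPM in pregnant LE. Its S libraries had 101, 103 and 105 CPM in control S and 68.5, 302 and 152 CPM in pregnant S, with gilt 05 highest and gilt 01 lowest (difference 1.68, SE 0.37, 95% CI 0.83 to 2.53, quasi-likelihood FDR 0.208). The calls of PRDX6, GCLM and MARVELD2 were kept in 1 of the 6 fits each.

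Further genes of this direction were ENPP4, an ectoenzyme that splits dinucleotides (1.42, 95% CI 0.80 to 2.04, FDR 0.143), MRS2, a magnesium channel of mitochondria (1.93, 95% CI 1.08 to 2.78, FDR 0.143, with 51% of its exon bases opposite to GPLD1), and GMNN, geminin, an inhibitor of DNA re-replication (1.39, 95% CI 0.77 to 1.999, FDR 0.143). GREB1L, a relative of the estrogen-regulated gene GREB1, differed by 1.99 (95% CI 1.06 to 2.91, FDR 0.168), the peroxisomal protein PEX11A by 1.65 (95% CI 0.89 to 2.41, FDR 0.168) and TMEM171 by 2.95 (95% CI 1.54 to 4.36, FDR 0.191). Differences were also called for SPTY2D1, a histone chaperone (1.68, 95% CI 0.92 to 2.45, FDR 0.156), VWA8 (1.43, 95% CI 0.78 to 2.08, FDR 0.158), LOC100620521 (1.55, 95% CI 0.81 to 2.30, FDR 0.191, with 23.6% of its windows of 50 bases in other genes, mainly LOC100154423) and the crystallin gene CRYGS (2.53, 95% CI 1.30 to 3.76, FDR 0.194, with 10.9% of its exon bases opposite to another gene). Of these calls, ENPP4 and SPTY2D1 were kept in 3 of the 6 fits, LOC100620521 and CRYGS in 1, and the others in 2. CRYGS had only 6, 3 and 8 counts in control LE and 15, 10 and 7 in control S, close to the floor. In addition, 6.9% of its exon bases overlap TBCCD1 on the same strand, and 13.6% of its windows of 50 bases occur in other genes.

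Most of the 31 genes shared a feature of 1 animal. In 25 of them gilt 05 had the smallest LE to S ratio of the pregnant gilts, with a median ratio of 0.91 against 1.78 in gilt 01 and 1.59 in gilt 14, and a median of −0.40 in control gilts. The median CPM of these genes in pregnant S was 47.5 in gilt 01, 117 in gilt 05 and 56.5 in gilt 14, while control S had 65.7 to 68.5. The feature was not particular to them. Over the 10643 genes listed for all 3 cell types, gilt 05 also had the fewest log2 ratios beyond 1 among pregnant gilts. Its share was 14.3%, against 29.5% in gilt 01 and 26.4% in gilt 14. Without gilt 05, 300 genes were called with the higher effect in LE and 103 with the lower, and 338 genes passed an FDR of 5%. Without 1 of the other gilts the numbers were 4 to 19 above and 36 to 110 below, with 0 to 9 at an FDR of 5%. For the 78 genes below, the medians of the 3 pregnant gilts were alike (−2.50, −2.58 and −2.46, controls −0.18). Epithelium markers in S of gilt 05 stood at 5260 CPM, and their part in the smaller ratios of that gilt was not tested.

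Gene lists were described by how many of their members had an unadjusted p below 0.05, to be read against 7.78% above and 5.54% below among all genes. Above and below give only the sign of the LE effect minus the S effect. A gene above can thus be raised in LE, lowered in S, or both. In the list of tight and gap junction genes, 8 of the 21 tested members were above and 0 below, with a median difference of 0.95 against −0.01 for all genes. Among them were MARVELD2, OCLN, CLDN3, CLDN4, CLDN12 and CGN. OCLN, occludin, was at 262, 293 and 336 CPM in control LE and 576, 954 and 1008 CPM in pregnant LE, while S had 375, 334 and 368 CPM in control S and 146, 678 and 317 CPM in pregnant S (difference 1.66, SE 0.40, 95% CI 0.74 to 2.57, quasi-likelihood FDR 0.222). CLDN3 and CLDN4, barrier-forming claudins, differed by 1.46 (95% CI 0.53 to 2.39, FDR 0.229) and 1.69 (95% CI 0.50 to 2.89, FDR 0.245). Epithelium markers as a list had 4 of 14 members above and 1 below with a median of 0.63, but CLDN3 and CLDN4 belong to both lists. CLDN1 (1.39, 95% CI −1.35 to 4.13, FDR 0.678) and the connexin GJA1 (0.95, 95% CI −0.18 to 2.07, FDR 0.450) did not reach that level, although both were higher in all pregnant LE libraries. Without single gilts, 5 to 10 of the junction genes were above.

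For interleukin 1 and NF-kappa-B signalling, 9 of 26 members were above and 0 below (median 0.70), and 7 to 13 were above without single gilts. IL1RAP, the coreceptor of interleukin 1, was at 272, 242 and 305 CPM in control LE and 1059.7, 2458 and 2052 CPM in pregnant LE. In S, 507, 192 and 331 CPM in control gilts and 131, 1518 and 505 CPM in pregnant gilts were found, with gilt 01 below and gilt 05 far above the controls (difference 2.13, SE 0.60, 95% CI 0.77 to 3.49, quasi-likelihood FDR 0.229). NFKB2, a subunit of the noncanonical pathway, was at 19.1, 15.2 and 16.8 CPM in control LE and 77.1, 93.3 and 80.2 CPM in pregnant LE and at 20.6, 16.1 and 11.8 CPM in control S and 28.005, 48.4 and 20.98 CPM in pregnant S. It was higher in all pregnant libraries of both cell types and more so in LE (difference 1.33, SE 0.37, 95% CI 0.49 to 2.18, quasi-likelihood FDR 0.229). The adaptor TRAF2 differed by 1.49 (95% CI 0.51 to 2.47, FDR 0.232). None of the 9 genes reached the cut-off of 0.0021.

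Among EGF and FGF ligands, receptors and feedback inhibitors, 8 of 23 were above and 1 below (median 0.11), 5 to 10 above without single gilts. Ligands among them were EGF, TGFA and FGF7, and inhibitors of the pathway were ERRFI1, SPRY4, DUSP4 and DUSP5. Of these, the study reported EGF as lower in LE and stroma of pregnant gilts. ERRFI1, which blocks EGF receptors, was at 123, 66.8 and 115 CPM in control LE and 179, 217 and 190.2 CPM in pregnant LE and at 126, 55.3 and 119 CPM in control S and 59.1, 123 and 51.2 CPM in pregnant S (difference 1.37, SE 0.33, 95% CI 0.63 to 2.11, quasi-likelihood FDR 0.212). DUSP5, a phosphatase of ERK, differed by 1.90 (95% CI 0.87 to 2.94, FDR 0.212) and SPRY4 by 1.60 (95% CI 0.63 to 2.57, FDR 0.227). Receptors of lysophosphatidic acid went in both directions, LPAR3 with 2.09 (95% CI 0.96 to 3.23, FDR 0.212), LPAR5 with 1.62 (95% CI 0.52 to 2.72, FDR 0.237) and LPAR1 with −0.92 (95% CI −1.52 to −0.32, FDR 0.232). LPAR3 was at 90.4, 43.5 and 40.9 CPM in control LE and 478, 819 and 503 CPM in pregnant LE and at 99.3, 38.6 and 46.3 CPM in control S and 65.3, 456 and 91.01 CPM in pregnant S, so that every pregnant LE library exceeded the controls, whereas in S gilt 05 stood far above the others.

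**Figure D5:**
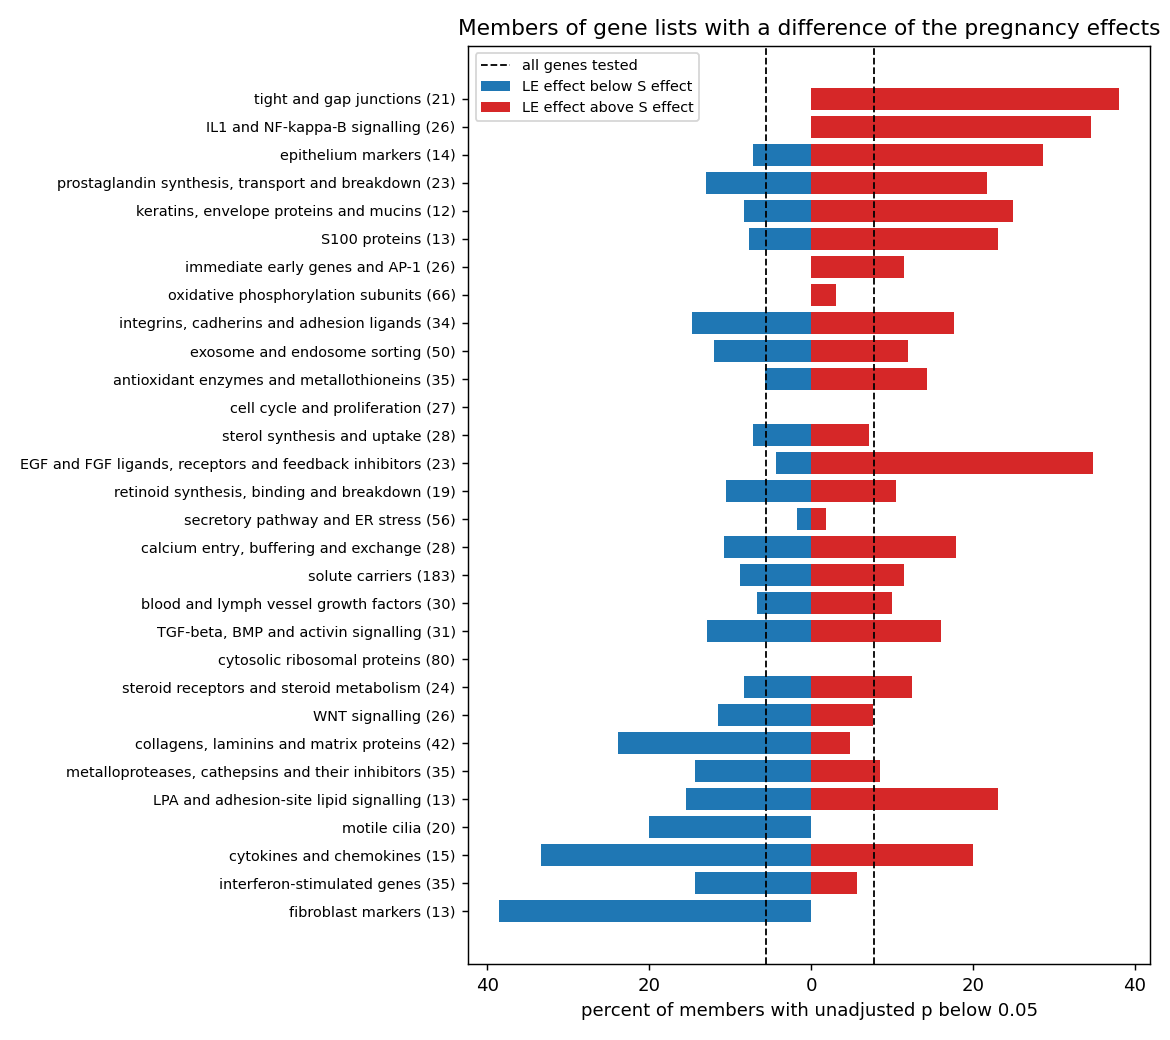
Percent of tested members (number in brackets) with an unadjusted p below 0.05 in each gene list of at least 12 members, to the right with the effect in LE above that in S and to the left below. Dashed lines mark all genes tested (7.78% and 5.54%), and junction genes had 8 of 21 members above, fibroblast markers 5 of 13 below.

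Prostaglandin genes went in both directions, with 5 of 23 above and 3 below. AKR1B1, a reductase that makes prostaglandin F2 alpha, was at 257, 65.7 and 221 CPM in control LE and 8116, 8273 and 1663 CPM in pregnant LE. In S it was at 175, 59.6 and 247 CPM in control gilts and 650.3, 4179.6 and 174 CPM in pregnant gilts, highest in gilt 05 (difference 2.49, SE 0.68, 95% CI 0.93 to 4.05, quasi-likelihood FDR 0.229). PTGS2, PTGR1, PTGFRN and the exporter ABCC1 (1.71, 95% CI 0.31 to 3.10, FDR 0.284) were also above, while the receptors PTGER2 and PTGFR and the uptake carrier SLCO2A1 (−1.39, 95% CI −2.36 to −0.41, FDR 0.242) were below. The study reported PTGS2 as lower in pregnant gilts in stroma only. HPGD, the enzyme that inactivates prostaglandins, was lower in all pregnant libraries of both cell types, and its difference was 0.24 (95% CI −2.0004 to 2.48, FDR 0.949).

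Genes of calcium handling had 5 of 28 members above and 3 below. TRPV6, a calcium channel of the apical membrane, was at 49.9, 28.8 and 30.2 CPM in control LE and 1649.7, 1495 and 338 CPM in pregnant LE. In S, 71.2, 17.3 and 31.3 CPM in control gilts and 109.7, 763 and 92.9 CPM in pregnant gilts were measured, higher than in all controls (difference 2.16, SE 0.72, 95% CI 0.53 to 3.79, quasi-likelihood FDR 0.259), and 24.6% of its exon bases lie opposite to EPHB6. S100G, the calcium-binding protein calbindin-D9k, was at 95.7, 68.5 and 46.1 CPM in control LE and 356, 639.7 and 182 CPM in pregnant LE and at 78.6, 51.4 and 44.5 CPM in control S and 22.6, 280.2 and 20.4 CPM in pregnant S (difference 2.44, SE 0.62, 95% CI 1.02 to 3.86, quasi-likelihood FDR 0.224). SLC24A4, a sodium and calcium exchanger, was at 1306, 1402 and 1112 CPM in control LE and 7.23, 3.09 and 40.6 CPM in pregnant LE, and at 1724, 1809 and 1389 CPM in control S and 375, 1029 and 119 CPM in pregnant S. The groups were separated in both cell types, and the difference was −4.59 (SE 1.46, 95% CI −7.90 to −1.28, quasi-likelihood FDR 0.246), not reaching the cut-off of 0.0021. RYR2 differed by −2.02 (95% CI −3.18 to −0.87, FDR 0.224), with its highest level in S of gilt 01. Of the 183 solute carriers, 21 were above and 16 below, with SLC5A1 and SLC35F3 called.

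Collagens, laminins and matrix proteins had 10 of 42 members below and 2 above, with a median of −0.26. Fibroblast markers had 5 of 13 below and 0 above. COL3A1, a fibrillar collagen, was at 3814, 7129 and 5304 CPM in control LE and 5550.1, 3494 and 3896 CPM in pregnant LE, and at 1758, 3628 and 3007 CPM in control S and 21281, 2905 and 4424 CPM in pregnant S (difference −1.57, SE 0.60, 95% CI −2.93 to −0.21, quasi-likelihood FDR 0.302). Only S of gilt 01 exceeded all LE libraries. DCN, decorin, differed by −1.65 (95% CI −2.95 to −0.35, FDR 0.268) and COL5A1 by −1.21 (95% CI −2.21 to −0.21, FDR 0.288). Without gilt 01, 5 matrix genes were below (median 0.03) and 3 fibroblast markers, and without gilt 02 the number below was 0 in both lists. Metalloproteases, cathepsins and their inhibitors had 5 of 35 below and 3 above.

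Interferon-stimulated genes had a difference below 0 in 29 of 35 members (median −0.59), with 5 below and 2 above at p below 0.05. Of all 10890 genes tested, 5581 had a difference below 0. IRF9, a subunit of the factor ISGF3, was at 88.5, 102 and 71.6 CPM in control LE and 22.9, 29.04 and 49.1 CPM in pregnant LE and at 45.5, 89.1 and 61.03 CPM in control S and 47.5, 26.2 and 93.8 CPM in pregnant S (difference −1.04, SE 0.39, 95% CI −1.93 to −0.16, quasi-likelihood FDR 0.298). IRF2 differed by 0.83 (95% CI 0.25 to 1.41, FDR 0.242). The count of members below moved with every gilt, being 15 without gilt 05 and 0 to 3 without 1 of the others. The difference was below 0 in 7 of 7 leukocyte markers, 2 of them at p below 0.05, CSF1R (−1.91, 95% CI −3.04 to −0.77, FDR 0.224) and CD163 (−1.88, 95% CI −3.27 to −0.50, FDR 0.253), both highest in S of gilt 01. Cytokines and chemokines had 3 of 15 above and 5 below, among them CXCL16 (1.69, 95% CI 0.69 to 2.69, FDR 0.224) and CXCL10 (−1.89, 95% CI −3.33 to −0.45, FDR 0.261). In CPM, CXCL16 was lower in all pregnant libraries of both cell types, more so in S.

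In the lists not yet described, motile cilia genes had 4 of 20 below and 0 above. Keratins, envelope proteins and mucins had 3 of 12 above, namely MUC1, a surface mucin (1.89, 95% CI 0.67 to 3.11, FDR 0.232), MUC4 and KRT7, and 1 below, KRT19 (−1.68, 95% CI −2.81 to −0.56, FDR 0.235). Steroid receptors and steroid enzymes had 3 of 24 above and 2 below, with the estrogen sulfotransferase SULT1E1 (2.23, 95% CI 1.01 to 3.45, FDR 0.212) and the reductase SRD5A1 (2.40, 95% CI 0.93 to 3.88, FDR 0.227) above. Sterol synthesis and uptake had 2 of 28 in each direction, and 13 above without gilt 05. Antioxidant enzymes and metallothioneins had 5 of 35 above and 2 below, where the list holds MT3 and MT1A but not the other 3 tested metallothioneins, retinoid genes 2 of 19 in each direction and WNT signalling 2 of 26 above and 3 below. TGF-beta, BMP and activin signalling had 5 of 31 above and 4 below, integrins and cadherins 6 of 34 and 5, exosome and endosome sorting 6 of 50 and 6, vessel growth factors 3 of 30 and 2, and immediate early genes 3 of 26 and 0. In the secretory pathway 1 of 56 was found in each direction, among oxidative phosphorylation subunits 2 of 66 above and 0 below, and among clade B serpins 1 of 5 above. Cell cycle genes had 0 of 27 and cytosolic ribosomal proteins 0 of 80 in either direction. Blood endothelium markers had 1 of 9 below, smooth muscle markers 1 of 6 above, and of the lymphatic markers only FLT4 was tested, with 0 in either direction.

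Some genes with large effects of pregnancy in LE could not be compared with precision because all libraries of a group held at most 3 counts. S100A8, a calcium-binding alarmin, was at 455, 259 and 101 CPM in pregnant LE and 47.5, 149 and 7.10 CPM in pregnant S. S100A9, its partner, was at 1773, 391 and 149 CPM and 110.5, 233 and 20.98 CPM. S100A12 was at 706, 391 and 187 CPM and 75.5, 292 and 29.6 CPM. In each pregnant gilt the LE value was the higher of both, but no difference of the effects was called, and with controls at the floor no fold is given. SERPINB2, a plasminogen activator inhibitor, had at most 1 count in control LE and 157, 196 and 148 CPM in pregnant LE, with 1.95, 0 and 0.735 CPM in control S and 30.3, 69.6 and 13.3 CPM in pregnant S. ACOD1, which makes itaconate, had at most 1.40 CPM in control LE and 126, 226 and 101 CPM in pregnant LE, with 4.67, 119 and 15.1 CPM in pregnant S. INHBB, a subunit of activin B, had 0 counts in all control LE libraries and 34.9, 10.2 and 4.44 CPM in pregnant LE, against 5.45, 1.52 and 2.57 CPM in control S and 16.3, 18.5 and 10.5 CPM in pregnant S. SLCO5A1 and GPR83 were also at the floor in a group of S and were not called.

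Of the other genes chosen because the study names them, none of the following was called. SERPINB7 differed by 4.08 (95% CI −0.28 to 8.44, FDR 0.407), SPP1, osteopontin, by 1.40 (95% CI 0.22 to 2.57, FDR 0.293), CDH17 by 1.01 (95% CI −1.005 to 3.02, FDR 0.682), STC1 by −0.69 (95% CI −1.96 to 0.58, FDR 0.650), ANGPT2 by −0.95 (95% CI −2.36 to 0.46, FDR 0.551), DEFB1 by 0.86 (95% CI −0.94 to 2.65, FDR 0.699) and IL24 by 1.17 (95% CI 0.03 to 2.30, FDR 0.361), where 48.3% of the exon bases of IL24 lie opposite to FCMR. For SPP1 the pregnant libraries were above the controls in both cell types, at 6.38, 4.35 and 9.59 CPM in control LE and 237, 109 and 149 CPM in pregnant LE and at 3.11, 5.78 and 5.51 CPM in control S and 42.8, 51.5 and 36.4 CPM in pregnant S. The intervals of CDH17, DEFB1 and HPGD span more than 3 log2 units, so that neither equal nor unequal effects are shown for them.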

How the data were processed

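The authors prepared Ovation SoLo libraries from laser capture microdissected cells, used Hisat2 for mapping to Sscrofa11.1 (NCBI), dropped PCR duplicates identified by random adapter bases (nudup), filtered genes by CPM within each cell type and deposited raw counts per NCBI Gene ID, 1 table for each cell type. The counting tool, the use of strand and the annotation release are not given in the sources used here. Total counts per library were 893912 to 4020796.

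LE and S counts were joined by Gene ID (10890 genes, all matched to the RefSeq annotation of Sscrofa11.1), normalized by TMM and fitted with edgeR 4.0.16 (R 4.3.3) by quasi-likelihood, with the gilt as a fixed block, cell type and the interaction of cell type with pregnancy (4 residual degrees of freedom). The sign is the LE effect minus the S effect on the log2 scale, called at an unadjusted p below 0.0021, and the FDR is Benjamini-Hochberg adjusted over all genes tested. Single effects in LE and S came from a fit of 4 groups without block and that in GE from the 8 GE libraries. CPM are TMM-scaled, ratios use a prior count of 2, and no fold is given for genes with 3 counts or fewer in each library of a group (the floor, which covers counting error only). The p values measure the spread between the 3 gilts per group.

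By the labels, a shared number marks LE and S of 1 animal. Deviations from the group means correlated with r = 0.276 to 0.417 in the 6 gilts (median 0.364, −0.0253 between different gilts). No libraries were duplicates (chi-square per gene 13.2 to 59.1 within groups). On simulated counts for the LE and S difference, 151 of 200 genes changed by 2 log2 units were found among 10890 genes with 21 false calls, and 122 with 3 false calls at an FDR of 5%. Genes with low mean counts were not among those changed. Counts were drawn independently for each gene, without shifts of the LE to S ratio shared by many genes of a gilt. These rates may therefore not hold for the measured libraries.

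Named genes were, in each direction, the 15 called genes with the smallest p and the 5 with the largest difference without overlap of ratios, all genes at an FDR of 5%, up to 3 members with the smallest p of each list, and genes the study names. Others are given as members of a list at p below 0.05 or as chosen after their values were seen. A few genes that these rules name are not reported here. Members and lists were chosen with earlier results of these data known. Alternatives in normalization, filter, test (limma 3.58.1, DESeq2 1.42.0), block, libraries, depth and single gilts were run, and the list counts without single gilts were added after seeing the data. Promoter windows, overlaps with other genes and shared windows of 50 bases were computed from the RefSeq genome and annotation.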

Additional observations from a re-analysis of the deposited data

Results flagged for a closer look

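By the interaction test itself, the pregnancy effect differed between LE and S in 31 genes with the higher and 78 with the lower effect in LE. The single gene at an FDR below 5% was TNIK, with −2.84 on the log2 scale, and the pregnant LE library fell below the S library in 3 of 3 gilts. Without gilt 01, whose S library alone was rich in fibroblast markers, 19 and 77 genes were called.

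Genes listed for 1 of both cell types did not enter the comparison. In LE, 40 of 525 such genes were called higher and 10 lower in pregnant gilts in a fit of LE libraries alone (9.52% called, against 7.76% of all genes listed for LE). Among them, SAA3 had a mean of 0.0772 CPM in control and 76.1 CPM in pregnant LE, NR4A3 0.578 and 67.6 CPM, and UPK3A 11.7 and 0.412 CPM. In S, 6 of 642 such genes were called higher and 1 lower (1.09%, against 1.47% of all genes listed for S). They included LYVE1 with a mean of 1.03 CPM in control and 25.2 CPM in pregnant S, and TACR1, the receptor of substance P, with 11.8 and 65.3 CPM.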

How the results depend on the processing

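All 109 differences kept their sign in every alternative in which they could be fitted, which for a minimum of 10 counts in every library were 59. Main counts were 31 above and 78 below with 1 gene at an FDR of 5%, and 26, 81 and 1 with DESeq2 size factors, 24, 92 and 1 with library sizes alone, and 42, 75 and 0 with limma voom. The minimum of 10 counts gave 18, 47 and 0, the likelihood ratio test 229, 182 and 365, and DESeq2 185, 144 and 279. For the gilt block, a fit with no replicate block gave 4, 18 and 0 (19 of the 109 still called), while a random block within limma voom gave 28, 46 and 1, to be set beside the fixed block in limma voom above. With all 22 libraries 65, 92 and 5 genes were called, with 14 libraries and a random block in limma voom, which changes both, 94, 90 and 8, and with counts thinned to the smallest library 44, 77 and 0. An FDR below 1% left 0 above and 0 below, an FDR below 5% left 0 and 1, and a p below 0.05 gave 847 and 603. Without single gilts the counts were 4 to 300 above, 36 to 110 below and 0 to 338 at an FDR of 5%, the highest above and at an FDR of 5% without gilt 05 and the fewest above without gilt 02. Signs turned for STC1 with 22 libraries (0.15), for CDH17 and DEFB1 with 14 libraries and the random block (−0.19 and −0.56), and without gilt 14 for CDH17 (−1.61, up to 2.37 without gilt 05), DEFB1 (−0.89, up to 1.83 without gilt 05) and HPGD (−1.02, up to 1.24 without gilt 01), and the cause was not tested. With 3 gilts per group and 893912 counts in the smallest library, differences of low genes in LE of gilt 01 rest on few counts, and fibroblast markers in control gilts were higher in LE than in S, against the labels.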

Other observations

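Beside the metallothioneins, which bind zinc, the carriers of zinc were listed after the values had been seen, as all tested members of the SLC30 and SLC39 families. Of 18 genes, 1 had an effect in LE above that in S and 3 below at an unadjusted p below 0.05, and the difference was below 0 in 12 (median −0.25). Among all genes tested, 7.78% were above and 5.54% below, and the difference was below 0 in 5581 of 10890.

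SLC39A2, an importer of zinc, was at 68.7, 40.2 and 61.5 CPM in control LE and 6.02, 10.2 and 28.2 CPM in pregnant LE. In S it was at 206, 293 and 61.8 CPM in control S and 242, 162 and 359 CPM in pregnant S. The pregnant LE libraries lay below all others, while the S groups overlapped (difference −2.62, SE 0.71, 95% CI −4.24 to −0.99, quasi-likelihood FDR 0.229). SLC30A2, an exporter into vesicles, was at 8.63, 10.9 and 7.48 CPM in control LE and 0, 0.618 and 0.634 CPM in pregnant LE, with at most 3 counts in each pregnant LE library, and at 30.8, 169.96 and 40.8 CPM in control S and 35.8, 32.6 and 26.5 CPM in pregnant S. SLC39A14 was at 6.38, 5.43 and 7.95 CPM in control LE and 13.2, 11.7 and 2.85 CPM in pregnant LE and at 7.79, 3.34 and 3.31 CPM in control S and 38.9, 20.5 and 10.2 CPM in pregnant S, higher in all pregnant S libraries (difference −1.86, SE 0.56, 95% CI −3.14 to −0.58, quasi-likelihood FDR 0.241). SLC30A5 was higher in all pregnant LE libraries, at 95.3, 113 and 86.8 CPM in control LE and 212, 271 and 208 CPM in pregnant LE, against 112, 109 and 103 CPM in control S and 58.3, 197 and 130.5 CPM in pregnant S (difference 1.10, SE 0.37, 95% CI 0.25 to 1.94, quasi-likelihood FDR 0.264).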
